A study of Zea mays with 4 samples.

Results

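Glutamine synthetase joins ammonium to glutamate at the cost of ATP and so makes glutamine, the first organic form of nitrogen in most plant tissues. The genes described here are those of the maize glutamine synthetase family whose symbol or synonym is gln followed by a number. 5 such genes were found among the 1108 genes that the tables name for the array, with 1 probe set each among the 17621 that are no controls. All 5 probe sets were above a log2 value of 4 on every array and so among the 10782 tested, for which that value had to be passed on at least 2 arrays. They are gln2, gln3, gln5 and GLN6, which the RefSeq table also names gs1-2, GS1-5, gs1-4 and GS1-1, and gln1, also named gs2. RefSeq lists GLN2 as a further synonym of gln1, so gln1 and gln2 were told apart by gene identifier. The table holds a 6th gene, gln4 or gs1-3, for which no probe set was named, and it was not analysed here.

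Plants carry several cytosolic glutamine synthetases, the GS1 enzymes, and a plastid enzyme, GS2. The plastid enzyme takes up ammonium from nitrate reduction and from photorespiration in green tissue, while the cytosolic enzymes make glutamine for transport in the vasculature and recover ammonium set free when proteins are broken down. In maize, mutants of the GS1-3 and GS1-4 genes were described with fewer or smaller kernels.

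The RNA came from the ear internode, the stem segment at the node that bears the ear, of F271, a maize inbred line grown untreated in an irrigated field. In the cross of F271 with line F288, recombinant inbred lines had been used to map lignin and wall degradability, and F271 is the parent with the unfavourable alleles. 2 Affymetrix maize arrays were made at tassel emergence, from 290 and 440 ng of RNA for replicates 1 and 2, and 2 at early silking, from 340 and 400 ng. All 4 arrays are of this 1 line, and the labels do not give the plants behind each replicate. The p-values therefore rest on a spread between samples that may be technical. The comparison the design allows is early silking minus tassel emergence, the course of expression in the internode over flowering.

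Values are log2 probe set summaries, and the number of arrays limits their precision. The array medians over the 17621 probe sets lay between 6.35 and 6.51. Among the tissue markers, all 4 secondary wall genes of the stem (cesa10, cesa11, CesA12 and bk2) were between 9.82 and 13.41 on every array. All 4 were lower at early silking without overlap, by a median log2 change of -2.37, which is larger than any glutamine synthetase change and moves in the direction of gln5. The part of this shift in the gln5 values was not tested. 6 of 8 kernel storage probe sets and 13 of 20 probe sets of MADS box and floral genes did not exceed a log2 value of 4 on any array. The other 2 kernel storage and 7 floral probe sets were tested, with values up to 9.075 for GLB1 and 12.36 for m19. Leaf photosynthesis genes were clearly measured, with 13 of 17 probe sets tested and values up to 14.42. Control transcripts were measured at both ends, and the signal at the 3' end minus that at the 5' end, called the 3' minus 5' gap here and affected by RNA integrity and by amplification, averaged 4.05 and 2.34 over 4 transcripts on tassel emergence replicates 1 and 2. It was 1.45 and 1.95 on early silking replicates 1 and 2, so it moved with the stages. Its part in the results was not tested beyond a fit that holds it as a covariate. With 4 arrays and a covariate that moves with the stages, that fit separates the 2 poorly and has little left to estimate the spread.

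GLN6, gln2 and gln3 were higher at early silking on both arrays, gln5 was lower on both arrays, and the plastid isoform gln1 overlapped between the stages. None of these differences passed an adjusted p of 0.05 (limma, Benjamini-Hochberg over all tested probe sets), a threshold that 0.0% of the 10782 tested probe sets reached. At an unadjusted p under 0.05, which 2679 probe sets or 24.8% reached, 12.7% with higher and 12.1% with lower values at early silking, 2 of the 5 members were found. These were GLN6 and gln2, both higher. GLN6 stayed under it in all 13 alternatives. For gln2 that count ended with the replicate block (unadjusted p = 0.0647), with the 3' minus 5' gap as a covariate (0.138) and without tassel emergence replicate 1 (0.0665), early silking replicate 1 (0.097) or early silking replicate 2 (0.0831). gln5 came under it with the gap as a covariate (0.00702) and with an intensity trend (0.0445). It also did with the crossed pairing, which blocks replicate 1 of each stage with replicate 2 of the other (0.00594). That pairing is among the 13 alternatives and was added after seeing the data. It puts the array with the higher gln5 value of each stage in the same block. The block thus takes up the spread between the gln5 replicates, and its small p-value is a description only. Leaving out tassel emergence replicate 1 brought gln5 under it as well, and leaving out early silking replicate 1 did so for gln3. The stages did not overlap in 4 of the 5 members and in 59.7% of tested probe sets. Higher silking values without overlap were seen in 3 of the 5 members and in 34.9% of tested probe sets. Lower silking values without overlap were seen in 1 of the 5 members and in 24.9% of tested probe sets. With 5 members, these counts are a description and set the family apart from no other genes. In this bulk tissue, fewer cells of a type and less RNA per cell cannot be told apart.

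**Figure D1:**
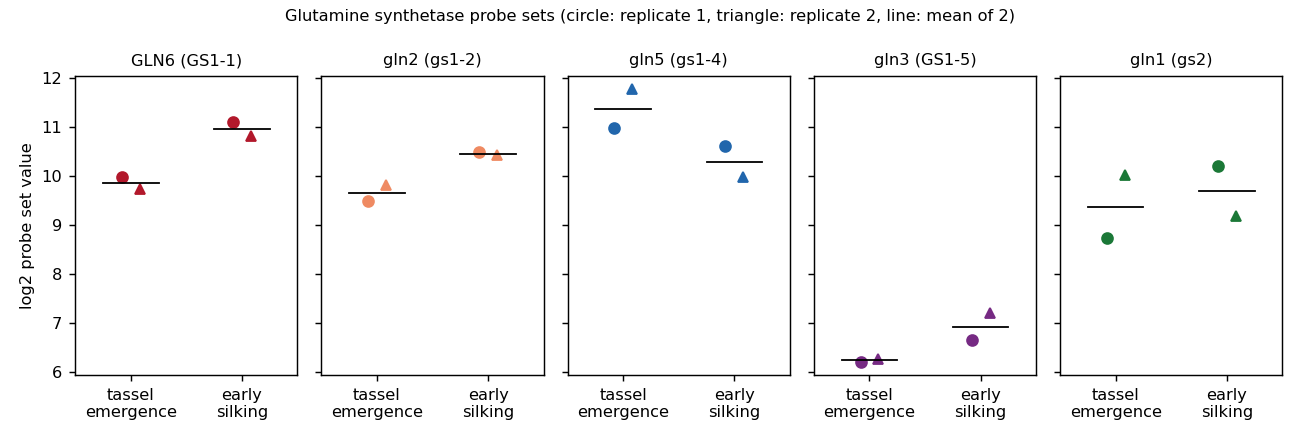
Log2 values of the 5 glutamine synthetase probe sets on each array, with circles for replicate 1, triangles for replicate 2 and a line at the mean of 2. GLN6, gln2 and gln3 lie higher at early silking without overlap, gln5 lies lower without overlap, and the gln1 values of the stages overlap.

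GLN6 encodes the cytosolic isoform GS1-1. Its log2 values were 9.97 and 9.72 at tassel emergence and 11.10 and 10.81 at early silking. Both silking arrays lay above both tassel arrays, by more than either pair of replicates differed. The means were 9.85 ± 0.18 (SD, n = 2) and 10.95 ± 0.21, a log2 change of 1.11 with an SE of 0.22, or 2.16-fold. The limma 95% interval ran from 0.50 to 1.72, with an unadjusted p of 0.00733 and an adjusted p of 0.111. This change was larger than that of 94.3% of tested probe sets, whose median was 0.10.

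gln2 encodes the cytosolic isoform GS1-2. Its log2 values of 9.48 and 9.82 at tassel emergence stood against 10.48 and 10.42 at early silking. The stages were again apart, and the silking arrays differed from each other by 0.06. The log2 change was 0.80 with an SE of 0.21, or 1.74-fold, with an interval from 0.22 to 1.38 (limma, unadjusted p = 0.0192, adjusted p = 0.143). With the 3' minus 5' gap as a covariate the change of gln2 was 0.51, while that of GLN6 was 1.24.

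gln3 encodes GS1-5 and had the dimmest probe set of the family. Its log2 values were 6.20 and 6.27 at tassel emergence and 6.65 and 7.19 at early silking. The stages did not overlap, and the silking replicates differed by 0.54, which is more than the step from the higher tassel array to the lower silking array. The log2 change was 0.69 with an SE of 0.26, and its interval ran from -0.03 to 1.41 (limma, unadjusted p = 0.0569, adjusted p = 0.212). Without early silking replicate 2, the highest array, the change was 0.42. The gln3 probe set lay at the 48.1 to 55.5 percentile of all probe sets on its array, that is, near the middle.

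gln5 encodes the cytosolic isoform GS1-4 and was the 1 member with lower values at early silking. Its log2 values were 10.96 and 11.76 at tassel emergence and 10.61 and 9.96 at early silking. The stages did not overlap, but the gap between the nearest arrays of the stages was smaller than the difference between replicates in either stage. The means were 11.36 ± 0.56 (SD, n = 2) and 10.29 ± 0.45, a log2 change of -1.08 with an SE of 0.40, or 2.11-fold lower. Of all tested probe sets, 10.1% had a still lower change. The interval ran from -2.20 to 0.04 (limma, unadjusted p = 0.0559, adjusted p = 0.211). With the 3' minus 5' gap as a covariate the change was -1.87. Without tassel emergence replicate 2, the array with the highest gln5 value, it was -0.68, and without early silking replicate 2, the lowest, it was -0.76.

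gln1, the gene of the plastid enzyme GS2, had log2 values of 8.72 and 10.02 on the tassel emergence arrays and 10.20 and 9.18 on the silking arrays. 1 array of each stage was high and 1 was low, so the stages overlapped, with the lowest array at tassel emergence and the highest at early silking. The mean difference was 0.32 with an SE of 0.61, and its interval from -1.39 to 2.03 leaves room for a change of the size seen in GLN6 or gln5 in either direction (limma, adjusted p = 0.773). Its sign was not stable, at -0.33 without tassel emergence replicate 1, -0.19 without early silking replicate 1 and -0.97 with the 3' minus 5' gap as a covariate.

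**Figure D2:**
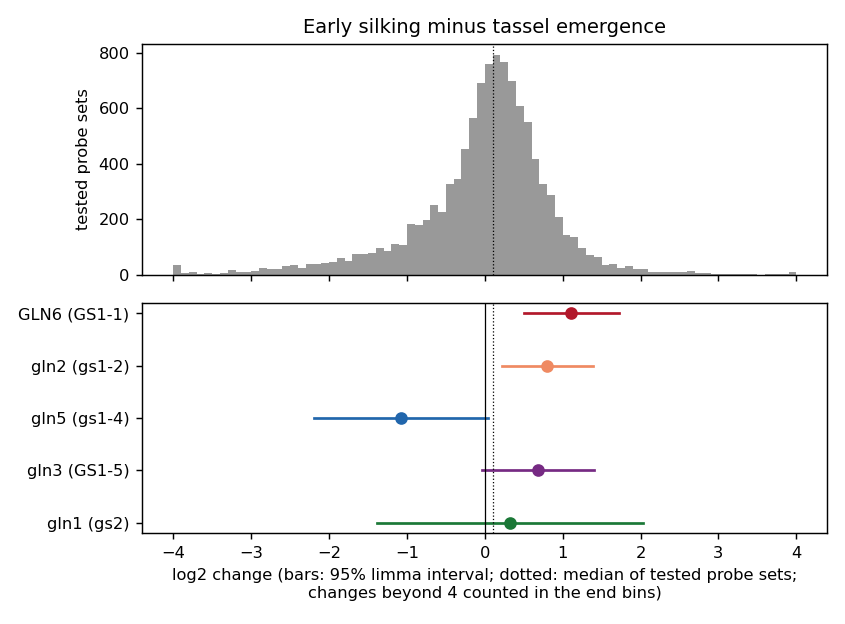
The upper panel counts tested probe sets by log2 change, early silking minus tassel emergence, and the lower panel gives each glutamine synthetase change with its 95% limma interval. The intervals of GLN6 and gln2 lie above 0, those of gln3, gln5 and gln1 include 0, and the dotted line marks the median of tested probe sets at 0.10.

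The order of the probe set signals within an array also differed between the stages. Signals of different probe sets depend on their probes as well as on the amount of RNA, so the order describes the arrays and does not rank the transcripts by abundance. At tassel emergence gln5 was the brightest member on both arrays, at the 91.1 and 95.1 percentile of all probe sets. GLN6 was the brightest on both silking arrays, at the 91.9 and 90.2 percentile. gln3 was the dimmest on all 4 arrays. The ranks between these differed from array to array, so that gln1 was the 2nd brightest on tassel emergence replicate 2 and the 4th on the other arrays. At tassel emergence GLN6, gln2 and gln1 had means of 9.85, 9.65 and 9.37, and GLN6 and gln1 swapped places between the replicates. At early silking the means of gln2 and gln5, at 10.45 and 10.29, were closer to each other than the gln5 replicates. The gln1 mean there, at 9.69, was closer to both than the gln1 replicates were to each other.

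The difference of 2 probe sets within an array takes out a constant offset between their probes. Its shift between the stages thus describes whether the 2 signals changed unequally. Unequal responses of the probes remain in it, and its sign still depends on the probes. GLN6 minus gln5 was -0.99 and -2.04 on the tassel emergence arrays and 0.49 and 0.85 on the early silking arrays. It was the 1 pair of the 10 with an opposite sign on both arrays of each stage, and its stage means differed by 2.18 on the log2 scale. gln2 minus gln5 was -1.48 and -1.94 and then -0.13 and 0.46, a shift of 1.88.

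gln3 minus gln5 shifted by 1.76 and gln1 minus gln5 by 1.40, both without overlap of the stages. The plastid isoform thus lay higher relative to gln5 on both silking arrays although its own values overlapped. The 6 pairs without gln5 overlapped between the stages, with shifts between -0.48 and 0.79. Within this family, then, the separate stages were found in the 4 pairs that hold gln5, the 1 member with lower silking values. The share of such pairs among other tested probe sets was not computed, so this count is a description. For GLN6, gln2 and gln3, the separation was fixed by the values above, as each was higher and gln5 lower without overlap. Of the 4 pairs, only gln1 minus gln5 could have overlapped. An exact permutation test over 2 against 2 arrays (2-sided) cannot give a p under 0.333, which these 4 pairs had, and the adjusted p over the 10 pairs was 0.741. The 4 differences share the gln5 values and are not independent of each other.

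**Figure D3:**
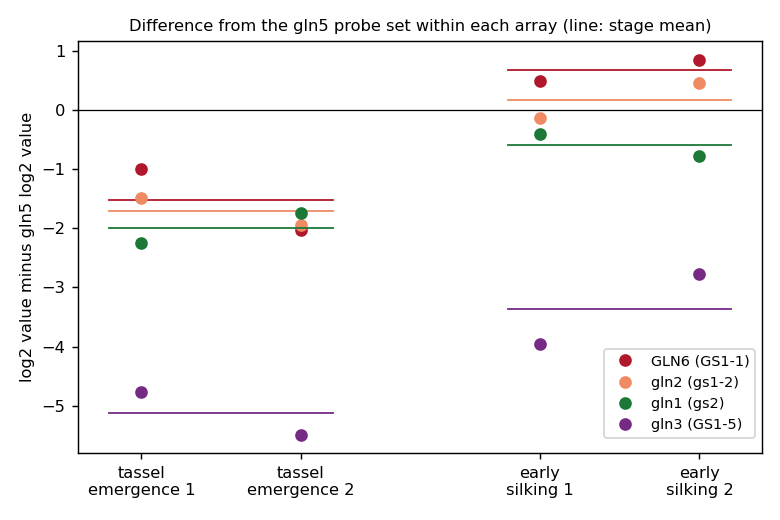
Each point is the log2 value of a glutamine synthetase probe set minus that of gln5 on the same array, and lines are stage means of 2 arrays. All 4 differences are higher on both early silking arrays, and GLN6 crosses from below gln5 to above it.

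Replicates of a stage differed most for gln1 and gln5. On tassel emergence replicate 2, gln1 was 1.30 above replicate 1 and gln5 was 0.80 above it. On early silking replicate 1, gln1 was 1.02 above replicate 2 and gln5 was 0.64 above it. Both genes thus had their higher value on the same array of each stage, and that array had the smaller 3' minus 5' gap in both stages. Differences of over 0.5 in both of these directions were found in 2 of the 5 members and in 7.23% of all tested probe sets. The directions were read from gln1 and gln5 themselves, so this count is a description and does not test for an excess in the family. GLN6, gln2 and gln3 differed between replicates by 0.54 or less.

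The leaf photosynthesis list, most of whose products work in plastids as GS2 does, also moved between replicates. The summed signal of its 17 probe sets, as log2, was 15.01 and 15.55 on the tassel emergence arrays and 15.77 and 15.34 on the early silking arrays. Such a sum is weighted to the brightest probe sets. The median of the same 17 went the other way, at 9.082 and 8.158 and then 9.027 and 10.365, so the list did not move as a whole. 9 of its 13 tested probe sets were higher on tassel emergence replicate 2 and early silking replicate 1, as were 37.7% of all tested probe sets and all 4 stem secondary wall genes. 4 of the 9 differed by over 0.5 in both stages. lhcb5, a light-harvesting protein, had log2 values of 11.88 and 13.02 and then of 13.10 and 11.96, the same high and low arrays as gln1. Both probe sets of PDK1 went the other way, 1 of them with 9.23 and 8.16 and then 8.85 and 10.90. Of the list's members, CP24, with 3 of its 4 probe sets, and C4ppdkZm1, with 1 of 5, did not exceed a log2 value of 4 on any array. The part of green tissue or of RNA quality in the gln1 values was not tested.

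**Figure D4:**
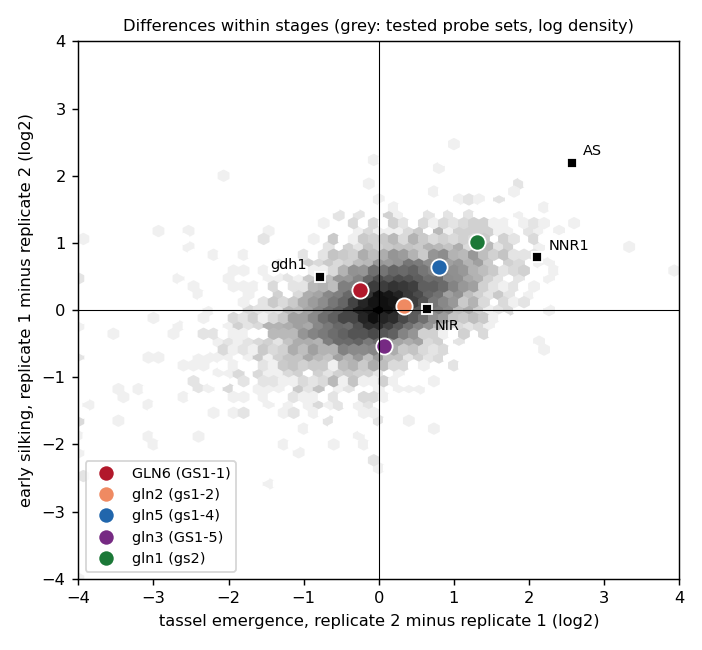
The horizontal axis gives tassel emergence replicate 2 minus replicate 1 and the vertical axis early silking replicate 1 minus replicate 2, both in log2 units, for all tested probe sets in grey, glutamine synthetase genes as coloured circles and other nitrogen genes as squares. gln1, gln5, NNR1 and AS lie above 0.5 on both axes, high on the same array of each stage, as do 7.23% of tested probe sets. gln2 and NIR also lie above 0 on both axes, at 0.06 and 0.019 on the vertical one. Of all tested probe sets, 37.7% lie above 0 on both.

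The other genes of nitrogen assimilation came from a list of nitrate uptake and reduction, glutamate and asparagine genes matched by symbol, with 10 probe sets of 7 genes. Of these, 4 probe sets were tested, none passed an adjusted p of 0.05 or an unadjusted p of 0.05, and all 4 overlapped between the stages. Their median log2 change was -0.49, beside 0.10 for all tested probe sets. NNR1, nitrate reductase, had log2 values of 7.17 and 9.28 on the tassel emergence arrays and 8.13 and 7.33 on the silking arrays. NIR, nitrite reductase, which makes the ammonium that GS2 uses, had 9.76 and 10.40 and then 9.98 and 9.96 on 1 probe set, and a second one stayed below 4. Nitrate reductase was thus high on the same arrays as gln1, and the silking values of nitrite reductase lay between its tassel values.

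AS, the asparagine synthetase gene also named asn1, which passes the amide nitrogen of glutamine on to asparagine, had log2 values of 5.84 and 8.41 on the tassel emergence arrays and 7.38 and 5.19 on the silking arrays. Tassel emergence replicate 2 was 2.57 above replicate 1 and early silking replicate 1 was 2.20 above replicate 2, with the same high arrays as gln1, gln5 and NNR1. A further probe set of AS passed a log2 value of 4 on 1 array and was not tested. gdh1, glutamate dehydrogenase, had 9.77 and 8.99 and then 9.13 and 8.63, with overlap and a log2 change of -0.49. The nitrate transporter genes nrt2 and Nrt1.1 were below a log2 value of 4 on all arrays. So was Asn1, a gene matched by that synonym that is also named nac4 and need not be an asparagine synthetase. No glutamate synthase or ammonium transporter was matched by the symbols of the list.

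Likeness to other named genes was measured as the root mean square difference of the 4 log2 values after each probe set was centred on its mean, over 948 tested probe sets with a gene name. Over 4 arrays, some named probe set will always come close, so the nearest 3 are given as a description. Nearest to gln5 were bip2, a chaperone of the endoplasmic reticulum, at 0.06, PIP2-1, a plasma membrane aquaporin, at 0.07 and copz2 at 0.13. bip2 had log2 values of 9.69 and 10.41 and then of 9.17 and 8.63, which are lower at early silking and higher on tassel emergence replicate 2, as for gln5. Nearest to GLN6 were zap1, a MADS box gene, at 0.10, gl8, a reductase of wax synthesis, at 0.11 and the ribosomal protein gene csu36b(rpL19) at 0.12. zap1 had 11.24 and 10.95 and then 12.30 and 12.26.

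Nearest to gln2 were sdx1, also listed as sxd1, at 0.04, pdi4, a protein disulfide isomerase, and LOC542641, both at 0.08. The values of sdx1 were 6.56 and 6.80 and then 7.45 and 7.46, a log2 change of 0.78 beside 0.80 for gln2. Nearest to gln3 were HMGe, ltk1 and ser1, at 0.05, 0.07 and 0.08. Nearest to gln1 were hk3, GRF12 and aprt1, at 0.11, 0.11 and 0.12, whose stages overlapped as well. No gene was among the nearest 3 of more than 1 member.

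**Figure D5:**
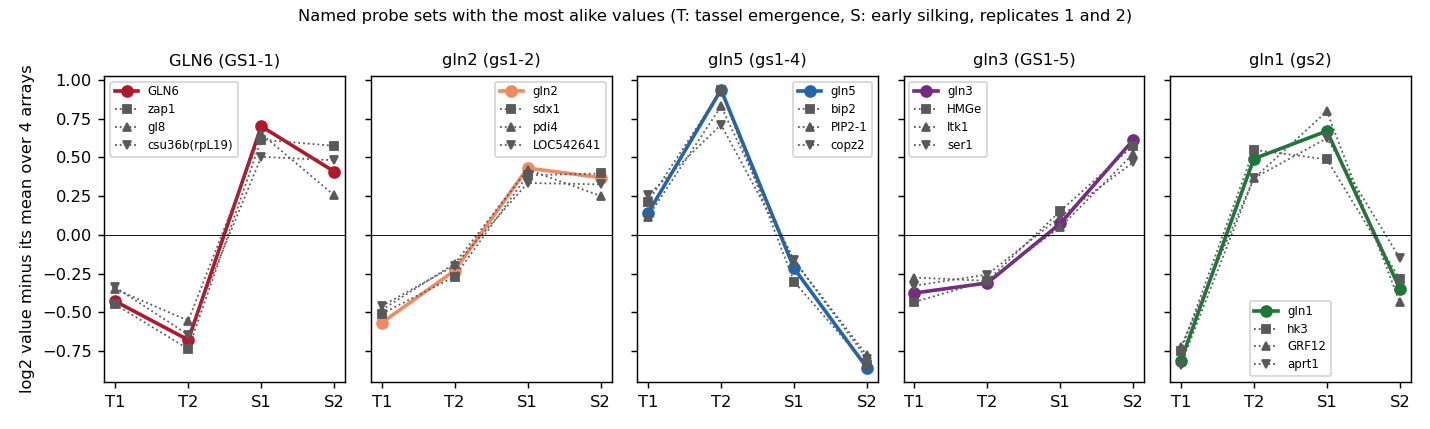
Log2 values minus their mean over the 4 arrays for each glutamine synthetase probe set and the 3 named probe sets nearest to it, where lines only join the values of a gene. The 5 members have different profiles, with high silking values for GLN6, gln2 and gln3, high tassel values for gln5 and 1 high array in each stage for gln1.

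All 5 probe sets carry the plain ending (_at) that the array design gives to probe sets meant for 1 transcript. GS1 genes are close relatives in sequence, and binding of one isoform's RNA by another isoform's probes was not tested. 1 probe set stands for each gene, so no second probe set bears on any of these differences.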

How the data were processed

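RNA of 4 ear internode samples was hybridised to Affymetrix maize arrays. The deposited log2 values are GCRMA probe set summaries, per the submitters' processing notes (version not given in the sources used here), and their range, read from the table, is that of log2 values. Of 17734 probe sets, 113 controls were left out, and those above a log2 value of 4 on at least 2 arrays were tested. Genes came from the platform annotation, with 1 gene for 1452 probe sets, and from RefSeq (Zm-B73-REFERENCE-NAM-5.0, names only) through gene identifiers, of which 1060 of 1108 matched. Stages were compared with limma 3.58.1 in R 4.3.3 (lmFit, eBayes, 2-sided, Benjamini-Hochberg), without the replicate number, which pairs no samples by the labels. The code of the fit was tested on simulated data with independent errors drawn from the fit's own variance model. That test does not bear on how well the p-values hold for these arrays. Members, lists and alternatives were chosen with earlier results of these data known. Named were every member, the tested nitrogen genes by class and by size of change, and the 3 probe sets nearest each member; lhcb5, PDK1, CP24 and C4ppdkZm1 were chosen after their values were seen. The gap used cyclophilin, GAPDH, ubiquitin and EF1a, whose ends exceeded 4 on all arrays, a choice made after the values were seen. Alternatives were the replicate block, the crossed pairing, other filters, quantile values, median centring and an intensity trend. Further ones were the gap as a covariate, leaving out each array, and 1 probe set per named gene. The crossed pairing was added after seeing the data.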

Additional observations from a re-analysis of the deposited data

How the results depend on the processing

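GLN6, gln2, gln3 and gln5 kept their direction under all 13 alternatives. None brought a glutamine synthetase probe set past an adjusted p of 0.05. Only quantile values, median centring and the gap as a covariate could have reversed the direction of these genes. Their stages do not overlap, so leaving out 1 array cannot reverse it, and the remaining alternatives return the same log2 change. Leaving out 1 array gave log2 changes of 0.96 to 1.25 for GLN6, 0.63 to 0.97 for gln2, 0.42 to 0.96 for gln3, -1.47 to -0.68 for gln5 and -0.33 to 0.97 for gln1. gln1 also reversed, to -0.97, with the 3' minus 5' gap as a covariate, and the cause was not tested. Under the other 8 alternatives that keep all arrays its change was 0.32 to 0.39. With the replicate number as a block, the change of GLN6 was 1.11 (adjusted p = 0.282, within 0.0812 to 0.438 over all its alternatives) and 1594 probe sets, in place of 2679, had an unadjusted p under 0.05, with 0 past the adjusted threshold in both. The count at an unadjusted p under 0.05 was 1339 without early silking replicate 1 and 1216 without early silking replicate 2, again with 0 past the adjusted threshold; these fits have fewer samples. Each other leave-out also called 0. Replicate deviations correlated at -0.42 between the stages. The crossed pairing, added after seeing the data, blocks the arrays along that negative correlation, and the 357 probe sets it called are a description only. Adjusting over 800 named genes, 1 probe set each, called 28, no glutamine synthetase among them.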
